A study of Rattus norvegicus with 86 samples.

Results

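Mitochondrially encoded respiratory chain genes are the 10 protein-coding genes of the rat mitochondrial genome examined here, out of 17180 genes in the expression table of the nucleus accumbens core, part of the ventral striatum. They were chosen by Ensembl identifier, by a rule that uses no measured value, although earlier results of these data were known. All 10 identifiers were found in the table. There are 5 members that encode subunits of complex I: mt-Nd1 (ENSRNOG00000030644), mt-Nd2 (ENSRNOG00000031033), mt-Nd3 (ENSRNOG00000033615), mt-Nd4 (ENSRNOG00000029707) and mt-Nd5 (ENSRNOG00000029971). Complex IV is represented by 3 members, mt-Co1 (ENSRNOG00000034234), mt-Co2 (ENSRNOG00000030371) and mt-Co3 (ENSRNOG00000030700). Complex III and complex V have 1 member each, mt-Cyb (ENSRNOG00000031766) and mt-Atp6 (ENSRNOG00000031979). The symbols were taken with the identifiers, since the deposited table does not pair them.

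The respiratory chain passes electrons from NADH through complex I, complex III and complex IV to oxygen, and the proton gradient that this builds drives ATP synthesis by complex V. Most subunits are encoded in the nucleus and imported, while a small set, mainly hydrophobic core subunits, is encoded in mitochondrial DNA. All of the genes examined here lie on the same strand of that genome and are transcribed together as long precursors, which are cut mostly at transfer RNAs. They receive short poly(A) tails, so their mRNAs are captured in polyA libraries. Neurons depend on oxidative phosphorylation for most of their ATP.

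The rats were outbred Heterogeneous Stock (HS) animals of both sexes. According to the paper, they had received no drugs, had not been tested for behavior and lived in groups. Their ages were not given in the labels, while the paper gives a mean age for each sex. Of 86 samples, 1 for each rat, 11 were labelled as removed, and the 75 libraries left in the table are those of 38 females and 37 males. Males outnumbered females in rat batch 2 (10 against 2), females outnumbered males in rat batch 3 (13 against 7) and rat batch 4 (14 against 12), the sexes were even in rat batch 6 (8 each), and a lone female made up rat batch 5 (n = 1). The labels do not say what a rat batch is, and the rats carry no treatment, so the comparisons below are between sexes, between rat batches and between individual rats. The tissue was dissected in bulk from frozen sections. Fewer cells of a type, fewer mitochondria in a cell and less RNA per cell cannot be told apart in these libraries. The identity of the tissue was not checked against markers, because no table used here pairs the identifiers with symbols. The total count per library, recovered from the deposited values, ranged from 8455361 in male 5 of rat batch 2 to 26145717 in female 5 of rat batch 6. The columns of the table stand in 3 runs of ascending names, which follow the rat batches in part. All 12 libraries of rat batch 2 are in run 1, those of rat batches 4, 5 and 6 are in run 3, and rat batch 3 has 7 libraries in run 1, 12 in run 2 and 1 in run 3.

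The 10 mitochondrial genes took 12.18% ± 1.47 (SD, n = 75) of the scaled counts of a library, that is, of counts after the authors' upper-quartile adjustment. The lowest share was 9.19%, in female 11 of rat batch 3, and the highest was 15.93%, in female 5 of rat batch 6. The binomial 95% confidence interval (Wilson) of the latter, 15.91% to 15.94%, covers counting error only. Other protein-coding genes of the mitochondrial genome are not in this sum.

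The share was lowest in rat batch 2, at 10.94% ± 0.86 (SD, n = 12), with values from 9.26% to 12.07%. Rat batch 3 averaged 11.71% ± 1.49 (SD, n = 20), and rat batch 6 averaged 12.27% ± 1.36 (SD, n = 16). The highest mean was that of rat batch 4, at 13.03% ± 1.27 (SD, n = 26), with values from 10.74% to 15.65%. The ranges of all 4 rat batches overlapped, and the means of rat batches 2 and 4 were 2.08 percentage points apart, more than the SD within either. The single library of rat batch 5 had 12.99%. By column run, the mean share was 11.30% in run 1, 11.29% in run 2 and 12.80% in run 3. Within rat batch 3 the share was 11.91% ± 0.80 in run 1 (SD, n = 7) and 11.29% ± 1.47 in run 2 (SD, n = 12), and the single library of run 3, female 2, had 15.22%. Females had 12.25% ± 1.53 (SD, n = 38) and males 12.11% ± 1.43 (SD, n = 37), a difference much smaller than the spread between rats.

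The share was also set beside the depth of each library and its number of genes at 0. Over 74 libraries, the share and the total count had r = 0.29 and rho = 0.20, and r was 0.14 without the 2 libraries farthest from the median. Within rat batches 2, 3, 4 and 6, r was 0.42, 0.50, -0.31 and 0.27, and without the 2 farthest libraries of each it was 0.11, 0.27, -0.22 and 0.15. The share and the number of genes at 0 had r = 0.17 and rho = 0.18 over all, and r = -0.65, -0.26, 0.55 and 0.53 within these rat batches. Without the 2 farthest libraries of each these were 0.30, 0.01, 0.41 and 0.58, so the negative values rest on those libraries. These values are a description with no test, and the part of depth in the share was not tested.

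**Figure D1:**
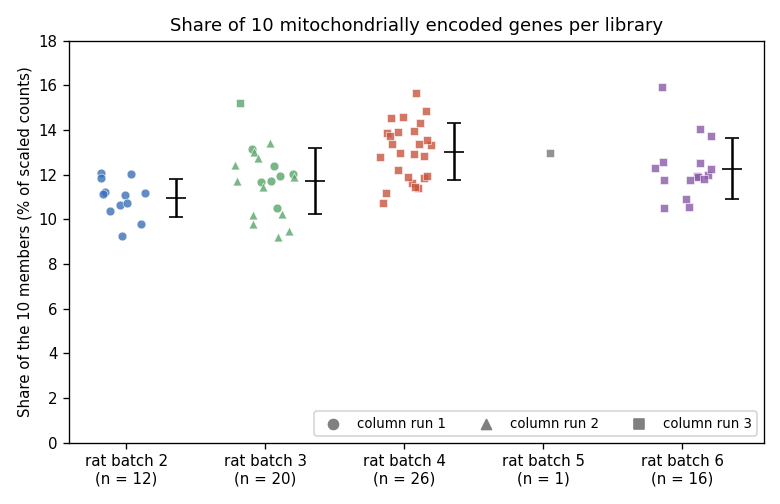
Share of the 10 mitochondrially encoded genes in each library, in percent of scaled counts, by rat batch. Each point is 1 library, its shape gives the column run, and the bars show mean ± SD. Libraries of rat batch 2 sit between 9.26% and 12.07%, and those of rat batch 4 between 10.74% and 15.65%.

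Scaled counts grow with the length of a transcript, and no transcript lengths were used here, so the genes are ranked by their counts and not by their number of molecules. By scaled count, mt-Co1, the catalytic subunit of cytochrome c oxidase, was the first of all 17180 genes in 70 of 75 libraries. It took 3.48% ± 0.43 of the scaled counts (SD, n = 75). In the other 5 libraries, 1 of rat batch 2 and 4 of rat batch 3, the first place was held by ENSRNOG00000047746, which is not a member. That gene had a median of 0.146% of the scaled counts over all libraries and at least 2.88% in those 5, whose share for the mitochondrial genes was between 9.19% and 10.19%. Leaving its counts out of the denominator changed the mean share from 12.18% to 12.24% and the gap between rat batches 4 and 2 from 2.08 to 2.02 percentage points. The same change was not computed for rat batch 3, which holds 4 of the 5 libraries, and the limma fits were not repeated without this gene.

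After mt-Co1, the median rank among all genes was 2 for mt-Atp6, a proton channel subunit of ATP synthase, 3 for mt-Co3, 4 for mt-Cyb, the cytochrome b of complex III, and 5 for mt-Nd4. mt-Co2, which carries the copper site that accepts electrons from cytochrome c, had a median rank of 6, mt-Nd1 of 7, mt-Nd2 of 8 and mt-Nd5 of 10. Of the members, 7 were among the 10 genes with the highest counts in all 75 libraries, mt-Nd2 was so in 74 and mt-Nd5 in 54. mt-Nd3 stood apart, with a median rank of 54, a range of ranks from 19 to 121, and 1.04% ± 0.18 of the members' scaled counts (SD, n = 75). Its lowest recovered count in any library was 8995, so counting error was small even for this member.

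The division of counts among the members also varied between rats. mt-Co1 held 28.62% ± 1.09 of the members' scaled counts, with a range from 25.95% to 31.10% (SD, n = 75). mt-Atp6 held 13.44% ± 0.43, with a range from 12.55% to 14.46% (SD, n = 75). Relative to its mean, the most variable part was that of mt-Nd3, from 0.76% to 1.72%, followed by that of mt-Nd5, from 1.95% to 4.82%. The part of mt-Nd5 averaged 3.66% ± 0.73 (SD, n = 12) for rat batch 2 and 3.47% ± 0.35 (SD, n = 20) for rat batch 3, and it was higher, at 4.01% ± 0.30 (SD, n = 26) and 4.08% ± 0.47 (SD, n = 16), for rat batches 4 and 6. The part of mt-Nd1, in contrast, was higher in rat batches 2 and 3, at 7.79% ± 0.27 (SD, n = 12) and 7.96% ± 0.41 (SD, n = 20), than in rat batches 4 and 6, at 7.35% ± 0.32 (SD, n = 26) and 7.29% ± 0.33 (SD, n = 16). These parts are descriptions and were not tested.

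To ask whether the members' levels shifted with rat batch, the deposited log2 values of the 74 libraries of rat batches 2, 3, 4 and 6 were fitted with limma, with sex as a covariate. The F test of rat batch passed an adjusted p of 0.05 for 7 of the 10 members. It also passed for 9192 of the 17180 genes, or 53.5%, so this count is read against a background in which more genes than not differ. By adjusted p in limma, the members were mt-Nd5 (0.000160), mt-Co1 (0.00127), mt-Nd2 (0.00283), mt-Co3 (0.00653), mt-Atp6 (0.0165), mt-Cyb (0.0172) and mt-Nd1 (0.0334). The call of mt-Nd1 was the least stable, and it was lost in 9 of 21 alternatives, including scaling to the total count (adjusted p = 0.0634 in limma) and leaving out male 5 of rat batch 2 (adjusted p = 0.0534 in limma). The members that did not pass were mt-Nd4, a proton-pumping subunit of complex I (adjusted p = 0.123 in limma), mt-Co2 (0.362) and mt-Nd3 (0.795). Rat batch took 30.2% of the variance of mt-Co1 and 25.6% of that of mt-Nd5, and as little as 1.61% of that of mt-Nd3. The median over the members was 17.48%, next to a median of 17.03% over the 12986 genes whose mean log2 value was 5 or more and of 24.34% over the 737 genes where it was 12 or more.

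Column run moves with these results. The F test of column run in place of rat batch passed for 6 members and for 9467 genes, or 55.1%. With column run added to the fit of rat batch, 0 members and 169 genes (0.984%) passed the F test of rat batch, and 6 members and 2363 genes had an unadjusted p below 0.05. With rat batch added to the fit of column run, 0 members and 1168 genes (6.8%) passed, and 4 members and 3658 genes had an unadjusted p below 0.05. In these joint fits the separation of rat batches 2 and 4 rests on rat batch 3, which has 1 library in run 3. Rat batch 2 lies wholly in run 1 and rat batches 4 and 6 wholly in run 3, and for those pairs rat batch and column run cannot be told apart. The mean recovered total count was 16407800 in rat batch 2 and 18867100 in rat batch 4. With log2 total count added to the fit, the F test of rat batch passed for 7 members and 8854 genes (51.5%).

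Most members passed between rat batches 4 and 2, where all 10 had a higher fitted level in rat batch 4 and 6 of them were called. Of all genes, 2354 (13.7%) were called higher in rat batch 4. The median log2 difference of the members was 0.21, and that of all genes was -0.003. Under quantile normalization 8 members were higher and 2 passed, where 2413 genes (14%) were called higher. That setting ties the highest-ranked genes to fixed values, so differences of the members there largely follow their ranks. With values scaled to the total count all 10 were higher and 8 passed, where 2451 genes (14.3%) were called higher. With column run added, 0 members and 0 genes (0%) passed, 522 genes and 0 members had an unadjusted p below 0.05, 9 of the 10 had a lower fitted level in rat batch 4 and the members' median was -0.13. The SEs with column run added ran from 0.19 for mt-Cyb to 0.32 for mt-Nd3, where on the deposited values alone they were 0.06 and 0.10. Those estimates rest on 1 library of rat batch 3 and the members vary together, so their signs do not show a reversal. With 20 expression components added, 0 members and 2 genes (0.0116%) passed, 1486 genes and 0 members had an unadjusted p below 0.05, and the median was -0.10.

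mt-Nd5, a proton-pumping subunit of complex I, had log2 values between 15.25 and 16.57 in rat batch 2, with a median of 16.18, whereas in rat batch 4 they lay between 16.11 and 16.92, with a median of 16.54. It was 0.44 ± 0.10 higher in rat batch 4 (log2, SE, adjusted p = 0.000395 in limma). Of the 26 libraries of rat batch 4, 23 lay above the median of rat batch 2, and 12 lay above its highest value. mt-Nd2, another subunit of the membrane arm of complex I, ran from 16.78 to 17.37 in rat batch 2 (median 17.11) and from 17.10 to 17.89 in rat batch 4 (median 17.39). Its log2 difference was 0.33 ± 0.08 (SE, adjusted p = 0.000781 in limma). No library of rat batch 2 reached the median of rat batch 4, and the groups overlapped.

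Of the complex IV genes, mt-Co1 ran from 18.79 to 19.24 in rat batch 2 (median 19.12) and from 19.09 to 19.62 in rat batch 4 (median 19.43). It was 0.31 ± 0.07 higher (log2, SE, adjusted p = 0.000412 in limma), and 20 of the 26 libraries of rat batch 4 lay above every library of rat batch 2. mt-Co3, a structural core subunit, was 0.26 ± 0.07 higher (log2, SE, adjusted p = 0.00216 in limma), with medians of 17.77 and 18.07. Here too no library of rat batch 2 reached the median of rat batch 4. mt-Co2 had a log2 difference of 0.14 ± 0.08 (SE, adjusted p above the threshold), and its ranges, 17.18 to 17.63 and 17.21 to 17.98, overlapped widely.

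mt-Cyb, the only mitochondrially encoded subunit of complex III, was 0.19 ± 0.06 higher in rat batch 4 than in rat batch 2 (log2, SE, adjusted p = 0.0138 in limma). mt-Atp6 was 0.23 ± 0.07 higher (log2, SE, adjusted p = 0.0104 in limma), with medians of 18.05 and 18.33 in these batches. The complex I members that did not pass were mt-Nd1, with a log2 difference of 0.17 ± 0.07 (SE, adjusted p = 0.0576 in limma), mt-Nd4, with 0.17 ± 0.07 (SE, adjusted p = 0.0818 in limma), and mt-Nd3, with 0.05 ± 0.10 (SE). Thus on the deposited values members of all 4 complexes passed, and the members of complex I ran from the largest difference of the 10 to the smallest. Under quantile normalization the 2 members that passed were mt-Nd2 and mt-Nd5. That setting ties the highest-ranked genes to fixed values, so members of steady rank had little room to differ. The SD of the rank over 75 libraries was 0.25 for mt-Co1 and 0.38 for mt-Atp6, and 2.42 for mt-Nd5. A difference between complexes therefore cannot be read from that setting.

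**Figure D2:**
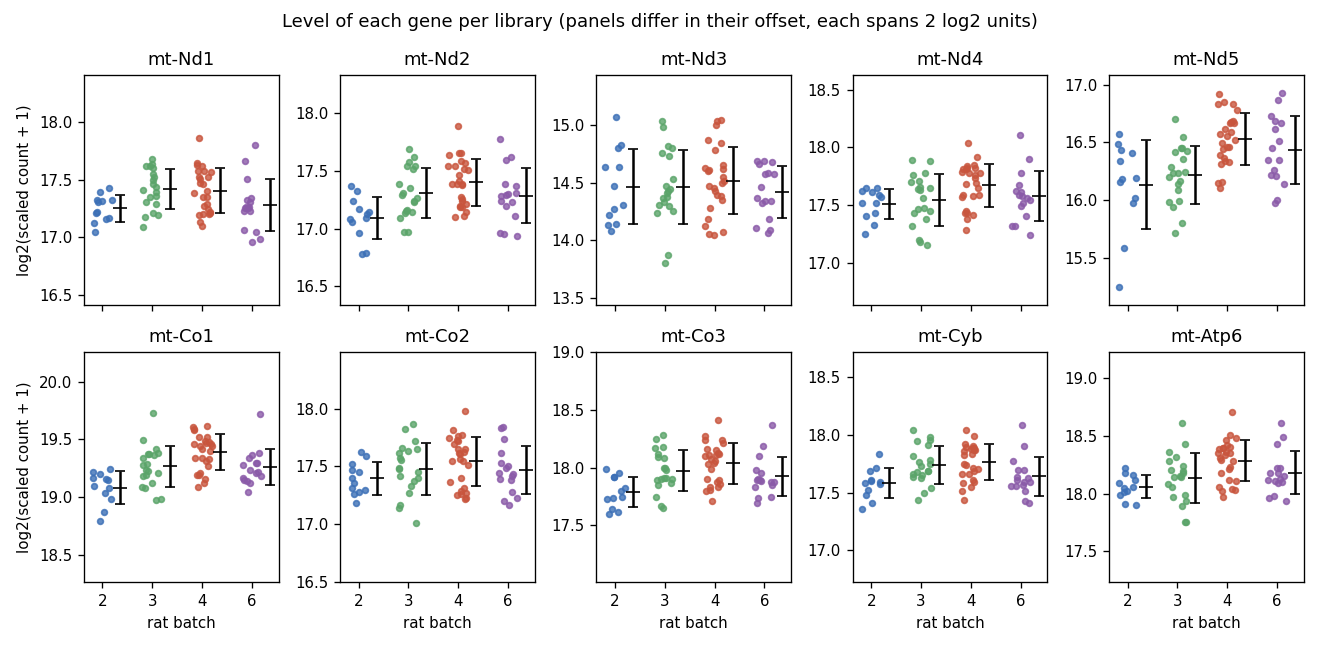
Log2(scaled count + 1) of each of the 10 genes in the 74 libraries of rat batches 2, 3, 4 and 6. Points are libraries, bars show mean ± SD, and every panel spans the same range of log2 units with its own offset. The median of mt-Nd5 is 16.18 for rat batch 2 and 16.54 for rat batch 4, and mt-Nd3 overlaps almost wholly between rat batches.

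Against rat batch 3, rat batch 4 was higher for 2 members, mt-Nd5 and mt-Atp6, where 3360 genes (19.6%) were called higher. mt-Nd5 ran from 15.71 to 16.70 in rat batch 3, with a median of 16.23, and was 0.30 ± 0.08 higher in rat batch 4 (log2, SE, adjusted p = 0.00196 in limma). mt-Atp6 was 0.15 ± 0.06 higher (log2, SE, adjusted p = 0.0357 in limma), and 19 of 26 libraries of rat batch 4 lay above the median of rat batch 3. The call of mt-Atp6 was lost with log2 total count added to the fit and with the pair fitted alone, and that of mt-Nd5 was kept. With column run added, 0 members and 0 genes (0%) passed, 0 members and 350 genes had an unadjusted p below 0.05, and the log2 differences turned to -0.23 for mt-Nd5 and -0.34 for mt-Atp6. Those 2 estimates had SEs of 0.26 and 0.19. The comparison of rat batches 4 and 3 depended on the scaling, since with values scaled to the total count 6 members passed, where 4633 genes (27%) were called higher and 2102 lower. With limma's voom on the recovered counts, 6 members passed and the calls over all genes were 4509 higher and 2153 lower, compared with 3360 and 3484 on the deposited values. Part of rat batch 3 can be compared between runs within the batch. mt-Nd5 had a mean of 16.36 ± 0.12 in its 7 libraries of run 1 and 16.09 ± 0.22 in its 12 libraries of run 2 (SD), a log2 difference of -0.29 ± 0.08 (SE, adjusted p = 0.0316 in limma), and it was the only member called, where 982 genes (5.72%) were called lower. The single library of rat batch 3 in run 3 had 16.70, the highest mt-Nd5 value of that batch.

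Rat batch 6 was higher than rat batch 2 for 2 members, mt-Nd5 by 0.34 ± 0.11 (log2, SE, adjusted p = 0.00859 in limma) and mt-Nd2 by 0.21 ± 0.08 (log2, SE, adjusted p = 0.0426 in limma), where 2910 genes (16.9%) were called higher. With column run added, 0 members and 0 genes (0%) passed, 0 members and 1109 genes had an unadjusted p below 0.05, and the log2 differences turned to -0.027 for mt-Nd5 and -0.18 for mt-Nd2. Those 2 estimates had SEs of 0.29 and 0.24. Adding 20 expression components let 0 members and 15 genes pass. In that fit 5 members and 1650 genes had an unadjusted p below 0.05, and the members' median was -0.28. On the deposited values both calls were lost without female 2 of rat batch 2. There the log2 differences were 0.25 for mt-Nd5 (adjusted p = 0.0546 in limma) and 0.18 for mt-Nd2 (adjusted p = 0.103 in limma). The call of mt-Nd2 was also lost without female 5 of rat batch 6 (adjusted p = 0.0754 in limma) and without male 5 of rat batch 2 (adjusted p = 0.0927 in limma). With voom, 5 members passed in this comparison, with 3352 genes called higher and 2369 lower, next to 2910 and 3073 on the deposited values.

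The remaining pairs of rat batches gave 0 members in limma. Between rat batches 3 and 2, 591 genes (3.44%) passed, and 5 members, mt-Nd1, mt-Nd2, mt-Co1, mt-Co3 and mt-Cyb, had an unadjusted p below 0.05, with log2 differences from 0.17 to 0.24. Over all genes 3452 (20.1%) were below that unadjusted p. Under quantile normalization 9 of the 10 members had a lower fitted level in rat batch 3 than in rat batch 2, and on the deposited values 1 did. Between rat batches 6 and 3, 7406 genes (43.1%) passed, and an unadjusted p below 0.05 was found for 2 members and 8534 genes (49.7%). Under quantile normalization 7 members passed as higher in rat batch 6, where 3644 genes (21.2%) were called higher. That setting ties the highest-ranked genes to fixed values, and ENSRNOG00000047746 held the first rank in 4 libraries of rat batch 3. The part of that gene in the quantile-normalized values of rat batch 3 was not tested. On the deposited values the 2 members were mt-Nd1, with a log2 difference of -0.15 ± 0.06 (SE), and mt-Nd5, with 0.20 ± 0.09 (SE), which differ in direction. Over the 10 members, 7 had a lower fitted level in rat batch 6 on the deposited values and 2 when scaled to the total count. Between rat batches 6 and 4, 665 genes (3.87%) passed, and an unadjusted p below 0.05 was found for 3 members and 3328 genes (19.4%). Without female 5 of rat batch 6 it was found for 7 members and 3265 genes, and 0 members passed the adjusted p. With column run added to this pair, 0 members and 765 genes passed, and 4 members and 3442 genes had an unadjusted p below 0.05. Adding 20 expression components let 0 members and 18 genes pass. In that fit 9 members and 1434 genes had an unadjusted p below 0.05. The members' median log2 difference was -0.15 there, and -0.11 on the deposited values. All 10 members had a lower fitted level in rat batch 6 than in rat batch 4, by 0.08 to 0.13 on the log2 scale, although under quantile normalization, which ties the highest-ranked genes to fixed values, 6 were higher and 4 lower. With voom the members passing were 0 between rat batches 3 and 2, 1 between rat batches 6 and 3, and 0 between rat batches 6 and 4.

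**Figure D3:**
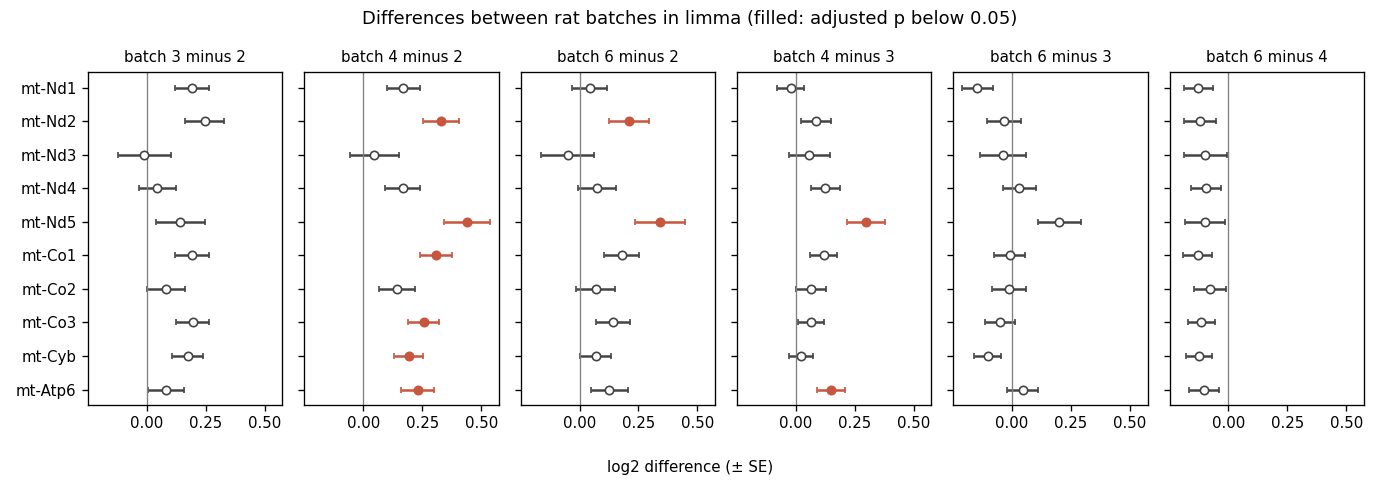
Log2 differences of the 10 genes for each of the 6 pairs of rat batches, with SE, from a limma fit of 74 libraries. Filled points passed an adjusted p of 0.05 over all genes. Of these, 6 lie in the comparison of rat batches 4 and 2, where mt-Nd5 reaches 0.44.

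No member passed the test of sex. With rat batch as a covariate, 0 members and 15 genes (0.0873%) passed in limma, and 0 members had an unadjusted p below 0.05. With voom, 0 members and 23 genes passed. The log2 differences, males minus females, lay between -0.02 for mt-Nd3 and 0.11 for mt-Nd5, and that of mt-Nd5 was 0.11 ± 0.07 (SE, adjusted p = 0.846 in limma). Females had mt-Nd5 values from 15.25 to 16.93 and males from 15.59 to 16.87, so the sexes overlapped almost completely. Within rat batches 3, 4 and 6 fitted alone, 0 members passed, and the median of the members was 0.00, 0.05 and 0.06 respectively. A test of whether the sex difference varied between rat batches gave 0 members and 0 genes (0%), with 0 members and 506 genes at an unadjusted p below 0.05, and voom also gave 0 genes.

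The members varied together between rats. For this comparison each value was taken as its residual from the mean of its sex and rat batch, over 74 libraries, and the 45 pairs of members were correlated. Pearson's r had a median of 0.83 and a range from 0.23 to 0.94, and 44 of the 45 pairs passed an adjusted p of 0.05 in a two-sided permutation test with 100000 permutations within sex and rat batch. The members share the scaling factor, the depth and the tissue sample of each library. As a comparison on the same residuals, 12976 other genes whose mean log2 value was 5 or more had a median correlation of -0.01 with the mean of the members, and the central 95% lay between -0.44 and 0.49. Removing the total count left the median over pairs at 0.83, and scaling by the total without the members gave 0.84.

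The closest pair was mt-Nd1 and mt-Nd2, which are neighbours in the mitochondrial genome apart from transfer RNAs (r = 0.94, rho = 0.94, permutation p = 1e-05, the smallest possible, adjusted p = 1.12e-05). Without the 2 libraries farthest from the median, r was 0.93. Within rat batches 2, 3, 4 and 6 it was 0.90, 0.91, 0.98 and 0.97. mt-Co3 and mt-Atp6, which also adjoin each other, followed with r = 0.93 and between 0.91 and 0.96 within the rat batches. mt-Atp6 had the highest median correlation with the other members, 0.91, and mt-Co3 had 0.89.

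mt-Nd3 was the member least like the others, with a median r of 0.51, although it lies next to mt-Co3 in the mitochondrial genome. It was closest to mt-Co2 (r = 0.76), and within rat batches 2, 3, 4 and 6 this pair had r = 0.70, 0.79, 0.81 and 0.76. Its correlation with mt-Co3 was 0.61, and those with the complex I members mt-Nd1, mt-Nd2 and mt-Nd4 were 0.39, 0.42 and 0.42. In rat batch 2 these were -0.27, -0.17 and -0.26, and 0.01, 0.27 and -0.05 over its 10 males, whereas rat batches 3, 4 and 6 had r from 0.45 to 0.59. mt-Nd5 was the next least like, with a median r of 0.72 and its closest partner in mt-Nd4, which lies beside it (r = 0.88, within rat batches 0.87 to 0.94). Both of these members had the widest residual SD of the 10, 0.30 for mt-Nd3 and 0.28 for mt-Nd5, compared with 0.16 for mt-Cyb and mt-Co1. The median residual SD of the members was 0.20, as was that of the 12986 genes whose mean log2 value was 5 or more, and the 737 genes where it was 12 or more had 0.14.

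mt-Nd3 and mt-Nd5 were the only pair that did not pass (r = 0.23, rho = 0.21, permutation adjusted p = 0.0849, adjusted p of rho = 0.105). Within rat batches 3, 4 and 6 they had r = 0.44, 0.51 and 0.47, whereas rat batch 2 had r = -0.53 over 12 libraries and -0.26 over its 10 males. No test was made within rat batches. Female 2 of rat batch 2 had the highest mt-Nd3 value of all 75 libraries, 15.07, and the lowest mt-Nd5 value, 15.25. The log2 difference of mt-Nd5 and mt-Nd3 was 0.18 in that library, whereas its lowest value in rat batches 3, 4 and 6 was 1.205, and its mean over all libraries was 1.89 ± 0.39 (SD, n = 75). Its median in rat batch 2 was 1.65. Male 5 of rat batch 2, with mt-Nd5 at 15.59 and mt-Nd3 at 14.47, also lay below the lowest value of rat batches 3, 4 and 6. Without female 2 of rat batch 2 the pair had r = 0.35 (permutation adjusted p = 0.00216), and all 45 pairs passed. As rat batch 2 has 2 females, the residual of the other female mirrors that of this library.

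**Figure D4:**
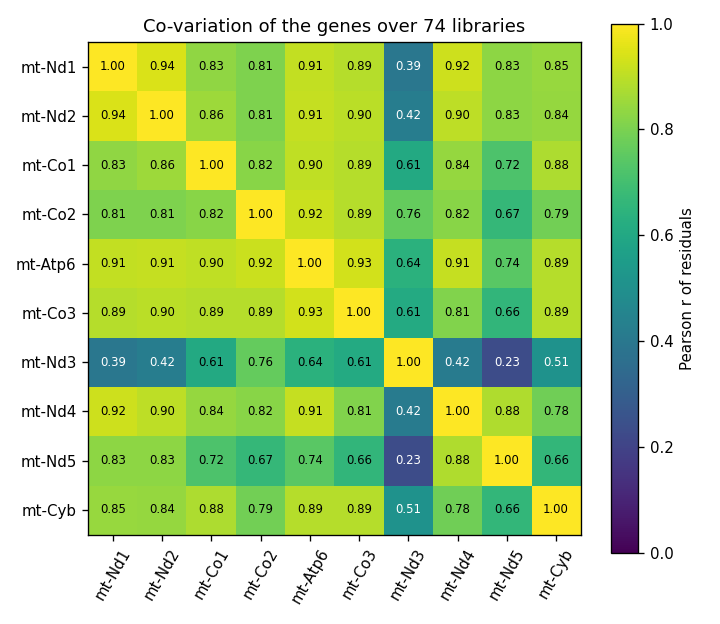
Pearson's r between residuals of the 10 genes over 74 libraries, after the mean of each sex in each rat batch was removed, with genes in their order along the mitochondrial genome. The row of mt-Nd3 is the weakest, from 0.23 with mt-Nd5 to 0.76 with mt-Co2, and mt-Nd1 and mt-Nd2 reach 0.94.

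**Figure D5:**
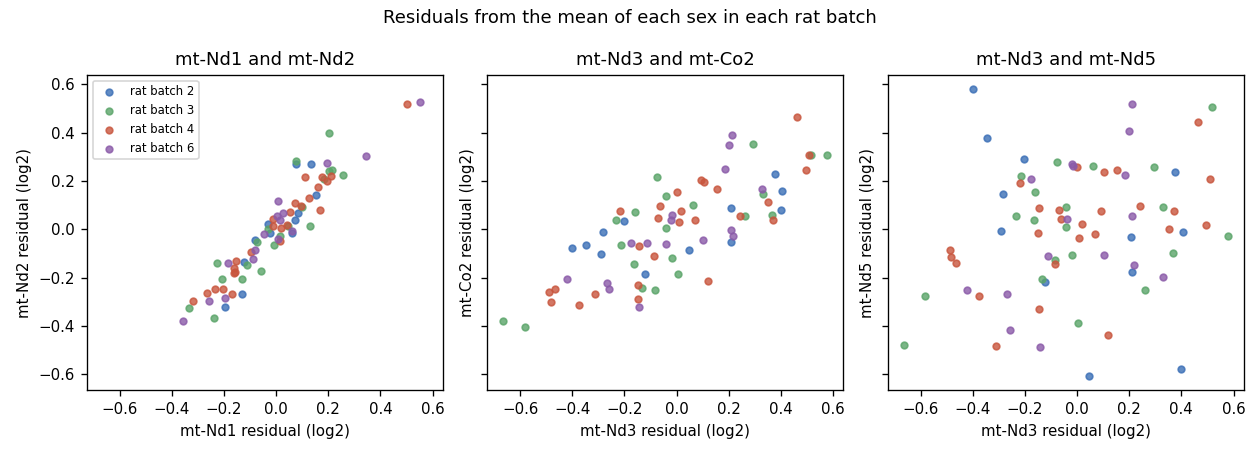
Residuals (log2) of a close pair, mt-Nd1 and mt-Nd2 (r = 0.94), of mt-Nd3 with its closest partner mt-Co2 (r = 0.76), and of mt-Nd3 with mt-Nd5 (r = 0.23). Each point is 1 of 74 libraries, coloured by rat batch.

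Among the genes outside the member list, those with the pattern most like the members' mean residual were ENSRNOG00000004629 (r = 0.72, rho = 0.70) and ENSRNOG00000001829 (r = 0.72, rho = 0.72), over the 74 libraries. The most opposite were ENSRNOG00000032574 (r = -0.69, rho = -0.70) and ENSRNOG00000022615 (r = -0.66, rho = -0.60). The deposited table does not pair these identifiers with symbols. Of the 12976 genes, 253 had r above 0.5 and 123 had r below -0.5. Each of the 4 named genes kept its sign within all 4 rat batches. These correlations describe the genes at the 2 ends of a ranking and carry no test.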

How the data were processed

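RNA-Seq of polyA RNA from the nucleus accumbens core of 86 HS rats was used, of which 75 libraries are in the table. The authors trimmed reads with cutadapt, estimated counts per gene with RSEM on the Ensembl rat transcriptome (Rnor_6.0 in the processing notes), applied an upper-quartile adjustment with DESeq2 and deposited log2(scaled count + 1) values for 17180 genes. RSEM divides reads among similar sequences, so values of mitochondrial genes that overlap neighbours or have nuclear copies are uncertain. A level set by upper quartile is relative to the other genes of its library.

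After the logarithm was undone, values up to 400, which were 58.3% of all values, lay within 0.00137 of a whole number. Above that the decimals of the log2 values limit this check, and values were rounded. A search for the factor of each library, between 0.55 and 2.5, gave back its counts. The search was tested on simulated data, and the recovered totals assume that no factor lay outside this range. Tests used limma 3.58.1 (R 4.3.3; lmFit, eBayes with trend) on the deposited values, with Benjamini-Hochberg adjustment over all genes and a threshold of 0.05. Rat batch 5, with 1 library, was left out. Pairs of rat batches came from the same fit, and the interaction from rat batches 3, 4 and 6. Correlations used 100000 permutations and 45 pairs. Other steps used Python 3.11.15, numpy 2.4.6, scipy 1.17.1 and pandas 2.3.3.

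Each library is 1 rat, numbered within its group in the order of the records. Named genes were the members, with values for those past the threshold, the extreme pairs of members, and the 2 highest and 2 lowest correlated identifiers outside them. The members and lists were chosen with earlier results of these data known. Nuclear respiratory chain genes, other mitochondrial genes, cell type markers and levels per length were not analysed here, since no table used here pairs the identifiers with symbols or lengths. The alternatives covered normalization, pseudocount, a mean log2 filter of 3, covariates, single batches and single libraries. Those without female 5 of rat batch 6 or female 2 of rat batch 2 (for the correlations), without ENSRNOG00000047746 and for the sexes within a rat batch were chosen after seeing the data.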

Additional observations from a re-analysis of the deposited data

Results flagged for a closer look

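Female 5 of rat batch 6 stood apart from the other 7 females of its batch. Its gap to the next library, as a fraction of the range of the 8, was past Dixon's 95% critical value of 0.526 for the share of the 10 mitochondrial genes (0.682), mt-Nd1 (0.604), mt-Nd4 (0.615), mt-Co1 (0.661), mt-Co3 (0.704), mt-Cyb (0.6997) and mt-Atp6 (0.637). It was the highest library each time. Its share was 15.93% and that of the next female 12.25%. These were 7 of 44 checks, over 4 groups and 11 measures, and they are not independent, since the members vary together and are parts of the share. Chance flags about 1 in 20 groups. Groups of fewer than 4 or more than 10 libraries were not checked. These include the groups of female 11 of rat batch 4, with a share of 15.65%, and female 2 of rat batch 3, with 15.22%. mt-Nd2, mt-Nd3, mt-Nd5 and mt-Co2 were not past the critical value in this library, and mt-Nd3 was not the highest of its group there. Female 5 of rat batch 6 had the highest total count of all 75, 26145717, and 962 genes at 0, where the median library had 562. The part of these in the result was not tested. Without it, the F test of rat batch passed for the same number of members, 7, and the median correlation over pairs was 0.82.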

How the results depend on the processing

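The F test of rat batch passed for 6 to 8 of the members under every change of scaling, pseudocount, filter or limma setting. In those fits it passed for 8803 to 9903 genes, and without either female of rat batch 2 for 7 members. It passed for 0 with column run or 20 expression components added, 1 without rat batch 2 (mt-Nd5), where 8214 genes passed, and 2 without rat batch 4 (mt-Nd5 and mt-Nd2), where 8025 genes passed. The 20 components may take up rat batch itself, and with them 10 genes passed. mt-Nd1 lost its call in 9 of 21 alternatives, with adjusted p over all 21 from 0.00661 to 0.637 in limma: the 2 added covariates, quantile normalization, scaling to the total, each of the 4 rat batches left out, and male 5 of rat batch 2, the library of lowest total count, left out (0.0534). Between rat batches 4 and 2, 0 members passed with column run or with components added, 2 with quantile normalization, 8 with rank-based values, voom or scaling to the total with or without the members, and 6 to 7 without a female of rat batch 2. Scaling without the members called 3154 genes higher and 1438 lower (2354 and 2261 on the deposited values). Rank-based values called 2278 genes higher and voom 2304. Without female 1 or female 2 of rat batch 2, 2435 and 1898 genes were called higher. Between rat batches 6 and 2, 0 passed with column run or components, 1 with total count as a covariate, with the pair fitted alone, without female 5 of rat batch 6 or without male 5 of rat batch 2, 4 when scaled to the total with or without the members, 5 with voom, and 0 to 3 without a female of rat batch 2. In the settings with 1 member, the genes called higher were 2749, 2313, 2908 and 2537 in turn. When scaled to the total with and without the members they were 3462 and 3891. Without female 1 or female 2 of rat batch 2 they were 2903 and 2563. Between rat batches 4 and 3, 0 passed with column run or components, 1 with total count as a covariate or the pair fitted alone, 6 when scaled to the total with or without the members or with voom, and 8 with quantile normalization. The genes called higher were 3094 with total count and 3414 with the pair alone. They were 4633 and 5166 when scaled to the total with and without the members, and 4509 with voom. Quantile normalization, which ties the highest-ranked genes to fixed values, called 3329 higher. Between rat batches 6 and 3, where 0 passed on the deposited values, 1 passed as lower in rat batch 6 with the filter or robust fitting, 1 as higher with voom or scaling to the total with or without the members, 2 in opposite directions with rank-based values, 2 as lower without female 5 of rat batch 6, 7 as higher with quantile normalization, and 0 to 1, as higher, without a female of rat batch 2. Column run was called for 6 members, for 0 with rat batch added and for 1 within rat batch 3.

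Some log2 differences turned negative. With column run added, rat batch 4 minus 2 was -0.065 for mt-Nd2, -0.18 for mt-Co1, -0.11 for mt-Co3, -0.15 for mt-Cyb and -0.22 for mt-Atp6, while mt-Nd5 stayed positive at 0.07. With 20 components it was -0.093 for mt-Nd2, -0.092 for mt-Nd5, -0.086 for mt-Co1, -0.071 for mt-Co3, -0.069 for mt-Cyb and -0.15 for mt-Atp6, and quantile normalization gave mt-Cyb -0.0028. For rat batch 6 minus 2, mt-Nd2 was -0.18 and mt-Nd5 -0.027 with column run, and -0.28 and -0.27 with components. For rat batch 4 minus 3, mt-Nd5 was -0.23 and mt-Atp6 -0.34 with column run, and -0.13 and -0.13 with components. None of these passed. The estimates with column run had SEs of 0.19 to 0.29. They rest on the 1 library of rat batch 3 in run 3, and the cause was not tested further.

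The share, 12.18% of all scaled counts, was 13.90% relative to the counts outside the members, by construction. The median correlation over pairs was between 0.81 and 0.84 under the alternatives that used all 4 rat batches, and 0.74, 0.84, 0.87 and 0.86 in rat batches 2, 3, 4 and 6 alone. With voom the calls over all genes were 45 higher and 811 lower for rat batch 3 minus 2 (254 and 337 on the deposited values), 5218 and 2181 for 6 minus 3 (3576 and 3830), and 791 and 154 for 6 minus 4 (424 and 241). Of 628 alternative values, 521 kept their call or their size. No paired analysis was possible because replicate numbers follow the order of the records and link no rats across groups. Lists of other genes and the share of all mitochondrial genes were not run. The lowest count of any member in any library was 8995, which bounds counting error only.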
